A study of Mus musculus with 6 samples.

Results

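The genes described are 9 transcripts commonly used to recognise monocytes and macrophages, taken as a set of named genes from the 22548 genes of a mouse eosinophil RNA-seq series: Csf1r, Cd68, Lyz2, Fcgr1, C1qa, C1qb, C1qc, Emr1 and Mertk. The set is given by name, and all 9 were found, each with 1 transcript. Low-density bone marrow cells of wild-type BALB/c mice aged 4 to 8 weeks had been cultured for 14 days to give eosinophils, granulocytes of allergic inflammation. The medium held stem cell factor and FLT3 ligand, each at 100 ng/ml, until day 4, after which IL-5 was given at 10 ng/ml. Such a culture starts from mixed marrow progenitors, so cells other than eosinophils can remain in it. The cells then received IL-33 at 10 ng/ml for 1 h or 4 h, IL-4 at 10 ng/ml for 1 h or 4 h, or no added cytokine (control) for 1 h or 4 h. Each of these 6 groups had 1 library of total RNA, so a difference between groups cannot be weighed against replicate error and carries no p-value. The series asked what IL-33 changes in eosinophils and how far IL-4 takes part in it. How much of a transcript came from eosinophils and how much from other cells of the culture cannot be told apart in these libraries.

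Levels are FPKM, the authors' deposited unit, in which fragments are divided by transcript length and by the size of the library. Each of 4 deposited tables pairs 1 treated library with the control of its time. The tables were normalised separately, and the same control has values in the IL-33 table that are 0.945 times (1 h) or 0.947 times (4 h) those in the IL-4 table. Change is therefore given within a table, as log2 of (treated FPKM + 1) over (control FPKM + 1), which makes changes of genes with low levels look smaller than they are. A gene was compared where it reached 1 FPKM in at least 1 of the libraries, and "higher" or "lower", "rose" or "fell" mean a log2 change of at least 1 in size. The number of reads is unknown, but the steps between low values give the treated library's depth as a multiple of its control's: 1.16 (IL-33 1 h), 1.89 (IL-33 4 h), 0.975 (IL-4 1 h) and 1.24 (IL-4 4 h). Low values are thus more precise in the IL-33 4 h library than in its control. In bulk RNA, fewer cells of a type and less RNA per cell cannot be told apart.

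As background, monocytes and macrophages depend on the receptor encoded by Csf1r, whose ligands are CSF1 and IL-34. Emr1 encodes F4/80, an adhesion receptor named as a macrophage antigen that mouse eosinophils are also known to carry, and Cd68 encodes a glycoprotein of lysosomes and endosomes. Lyz2 encodes the lysozyme of myeloid cells, neutrophils included, which cleaves bacterial cell walls. Fcgr1 encodes CD64, the high-affinity receptor for IgG. C1qa, C1qb and C1qc encode the 3 chains of C1q, the recognition protein that starts the classical complement pathway, and tissue macrophages are a main source of it. Mertk encodes a receptor tyrosine kinase through which macrophages take up dying cells. The transcription factor PU.1, encoded by Spi1 (listed in these files under the older symbol Sfpi1), binds many promoters of myeloid cells.

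The promoters of C1qb, C1qc and Lyz2 are shown because the C1q genes lie in 1 cluster, and C1qa and C1qc were near Lyz2 in profile of change. C1qb was nearer to Cd68 than to Lyz2. Promoter windows from 250 bases before to 50 bases after the start of the gene were taken from RefSeq, build GRCm38.p6, in which 6 of the 9 genes matched. Csf1r, C1qa and Emr1 did not match. Each window runs 5′ to 3′ on the gene's strand, and capitals mark the letters GGAAGT, a core sequence bound by the ETS family to which PU.1 belongs, or their reverse complement ACTTCC. The windows are chr4:136886151-136886450 for C1qb, chr4:136892865-136893164 for C1qc and chr10:117282223-117282522 for Lyz2, all on the minus strand.
C1qb: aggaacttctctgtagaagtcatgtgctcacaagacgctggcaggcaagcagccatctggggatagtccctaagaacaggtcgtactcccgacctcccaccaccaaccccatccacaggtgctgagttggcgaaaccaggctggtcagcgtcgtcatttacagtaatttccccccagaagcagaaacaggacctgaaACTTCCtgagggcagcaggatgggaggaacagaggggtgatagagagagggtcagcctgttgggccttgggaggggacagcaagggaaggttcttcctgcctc
C1qc: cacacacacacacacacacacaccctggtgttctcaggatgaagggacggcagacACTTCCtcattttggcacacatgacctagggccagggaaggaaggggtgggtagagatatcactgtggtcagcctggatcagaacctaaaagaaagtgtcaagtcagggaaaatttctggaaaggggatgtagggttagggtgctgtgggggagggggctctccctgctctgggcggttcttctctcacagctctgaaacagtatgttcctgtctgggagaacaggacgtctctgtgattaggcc
Lyz2: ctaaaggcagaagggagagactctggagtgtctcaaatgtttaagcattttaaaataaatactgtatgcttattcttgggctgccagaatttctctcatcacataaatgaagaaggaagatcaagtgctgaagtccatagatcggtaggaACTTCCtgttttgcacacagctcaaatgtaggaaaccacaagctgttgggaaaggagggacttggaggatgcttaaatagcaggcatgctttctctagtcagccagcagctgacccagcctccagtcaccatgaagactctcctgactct
Each of these 3 windows held the letters 1 time, on the strand opposite to the gene. Searched on both strands, the letters stood in 5 of the 6 windows (Cd68, Lyz2, Fcgr1, C1qb and C1qc, not Mertk), and in 7809 of all 32851 promoter windows of this length (23.8%). A match describes letters and not a site, and a window without a match says nothing of the factor.

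Of the 9 genes, 8 were present at 1 FPKM or more in every library, and their order was the same in all 6. Lyz2 stood highest, at 578 to 765 FPKM, followed by Emr1 at 279 to 523, Csf1r at 90.1 to 217 and Cd68 at 71.6 to 100.04. C1qc (25.2 to 35.9 FPKM), C1qb (21.3 to 25.6), C1qa (14.7 to 19.9) and Fcgr1 (4.72 to 7.67) were lower. Mertk, the receptor for dying cells, stayed at 0.261 to 0.601 FPKM and was never compared. Its highest level, 0.601 FPKM, was in the IL-4 4 h library, against 0.287 FPKM in the control. These ranges take the controls from the IL-4 tables. In rank among all genes, Lyz2 lay between 137 and 191 and Fcgr1 between 6514 and 7804. The order holds for levels per length of transcript, with 1 library behind each value, so neighbours cannot be set against a spread over samples. The closest neighbours were Csf1r and Cd68 with IL-4 at 4 h, where the ratio of Csf1r to Cd68 was 1.03. The other uncertainty is Lyz2 itself, since its paralog Lyz1 (86.5 to 118 FPKM) is nearly identical and the counting could divide reads between the pair. In mm9, Lyz2 (NM_017372) lies on chromosome 10 at 116714596 to 116719328, and Cd68 (NM_009853) on chromosome 11 at 69477872 to 69479564. Fcgr1 (NM_010186) lies on chromosome 3 at 96086831 to 96097892, and Mertk (NM_008587) on chromosome 2 at 128524732 to 128627924.

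**Figure D1:**
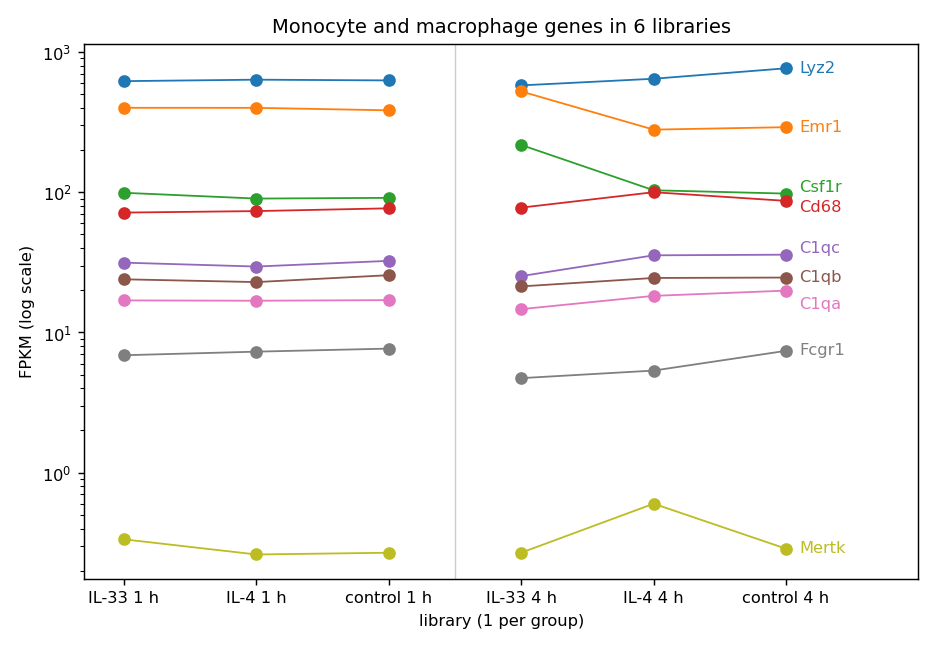
FPKM (log scale) of the 9 genes in the 6 libraries, 1 point per library, with lines joining libraries of the same time and controls taken from the IL-4 tables. The lines do not cross, and Csf1r in the IL-33 4 h library (217 FPKM) stands apart from its other values (90.1 to 103 FPKM).

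The markers of the cultured cell type give a scale, which depends on the marker taken. Prg2, which encodes a toxic protein that fills eosinophil granules, stood at 41838 to 52228 FPKM. Lyz2 reached 1.38% of Prg2 in the IL-33 4 h library and 1.62% in its control. Over all columns of the tables, the 9 genes together summed to 1192 to 1462 FPKM, or 0.164% to 0.193% of all FPKM. The 12 eosinophil markers summed to 62226 to 77370 FPKM and were all at 1 FPKM or more in every library. Prg2 made up most of that sum. Other eosinophil markers stood among the levels of the 9 genes: Ccr3 at 396 to 533 FPKM, Siglec5 at 189 to 245 FPKM and Il5ra at 12.9 to 26.0 FPKM.

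IL-33 for 4 h moved Csf1r, the CSF1 receptor, and no other of the 9 past the size rule. Csf1r was at 217 FPKM in the IL-33 4 h library, against 92.6 FPKM in the control of the same table (log2 change 1.22). At 1 h it was at 99.1 FPKM with IL-33, against 86.2 FPKM in the control (0.20). The IL-33 4 h library was thus the high one, and the other 5 lay close together. Of the 8 genes compared at 4 h, 1 was higher and 0 were lower, beside 4.15% higher and 1.38% lower among all 10803 genes compared. The rise of Csf1r ranked 347 from the top among these and lay inside the middle 95% of genes with at least 10 FPKM (-0.88 to 1.92). In the authors' deposited table its q-value at 4 h was 0.0440 and it was marked significant, by a test on the reads of 2 libraries that compares those libraries and not the conditions. Csf1r (NM_001037859) lies on chromosome 18 at 61265225 to 61290793 in build mm9, as deposited.

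Emr1, which encodes F4/80, had the next largest value with IL-33 and stayed short of the rule. It was at 523 FPKM in the IL-33 4 h library, against 276 FPKM in its control (0.92, rank 503). At 1 h it was at 400 FPKM with IL-33, against 363 FPKM in the control (0.14). The control of 4 h was the lower of the controls, at 291 FPKM against 384 FPKM in the control of 1 h on the scale of the IL-4 tables (-0.40), so against the control of 1 h the IL-33 4 h value of Emr1 came to 0.53. In the authors' deposited table the q-value of Emr1 at 4 h was 0.280, with no mark. Emr1 (NM_010130) spans 57498108 to 57622952 on chromosome 17 of mm9.

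The remaining 6 genes compared at 4 h were at lower levels with IL-33 than in the control, none past the rule. Lyz2, the lysozyme gene, was at 578 FPKM in the IL-33 4 h library, against 725 FPKM in the control (-0.33). Fcgr1, the IgG receptor gene, was at 4.72 FPKM, against 7.01 FPKM in the control (-0.48). Cd68 was at 77.7 FPKM, against 82.2 FPKM in the control (-0.08). Against the control of 1 h, Lyz2 came to -0.04 and Cd68 turned to 0.10. The pattern over the 9 genes was therefore split, with Csf1r and Emr1 above the control and the others at or below it. The median of the 8 was -0.23, beside -0.03 over all genes compared. Scaling every library to the same total FPKM shifts the median of all genes for IL-33 at 4 h by -0.12. On that scale Csf1r came to 1.08, Emr1 to 0.78, Lyz2 to -0.47 and Fcgr1 to -0.60. It also moves the split of all called genes to 381 higher and 238 lower (61.6% higher), whereas the values as deposited gave 448 higher and 149 lower (75.0% higher). No member changed its direction at 4 h under this scaling.

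The C1q genes lie together on chromosome 4 of mm9, within 18.7 kb from 136436060 to 136454759. C1qa (NM_007572) was at 14.7 FPKM with IL-33 at 4 h, against 18.8 FPKM in the control (-0.34). C1qb (NM_009777) was at 21.3 FPKM, against 23.3 FPKM in the control (-0.13). C1qc (NM_007574) was at 25.2 FPKM, against 34.0 FPKM in the control (-0.42). All 3 chains were thus lower in level in the library in which Csf1r rose. Their sum was 61.2 FPKM with IL-33 at 4 h, against 76.1 FPKM in the control, and 72.3 FPKM with IL-33 at 1 h, against 70.9 FPKM in the control. The share of each chain in that sum varied little over the libraries: 22.7% to 24.7% for C1qa, 30.7% to 34.8% for C1qb and 41.2% to 45.4% for C1qc. The ratio of Csf1r to the C1q sum was 3.55 in the IL-33 4 h library, against 1.22 in its control. That ratio lay between 1.22 and 1.37 in the other 5 libraries.

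**Figure D2:**
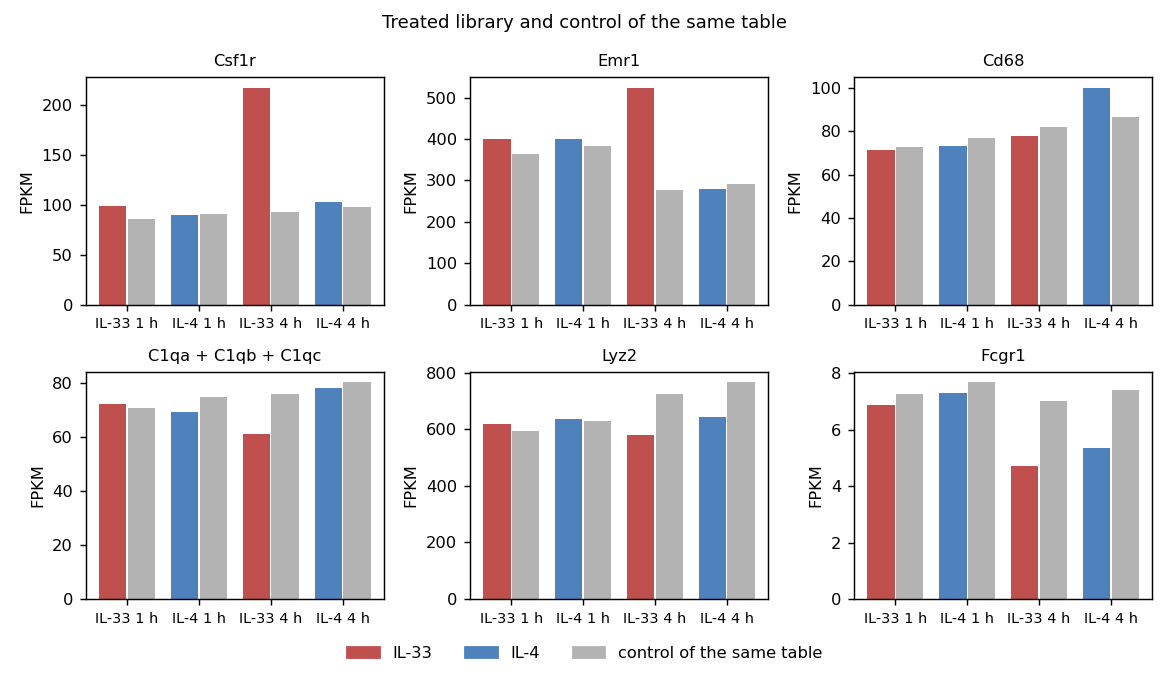
FPKM of Csf1r, Emr1, Cd68, the summed C1q genes, Lyz2 and Fcgr1 (y axes from 0, each with its own scale) in each treated library (red IL-33, blue IL-4) beside the control of the same table (grey), 1 library per bar. Csf1r with IL-33 at 4 h (217 FPKM) stands above its control (92.6 FPKM), while the C1q sum (61.2 FPKM) stands below its control (76.1 FPKM).

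IL-33 for 1 h left the 9 genes near the control. Of the 8 compared, 0 were higher and 0 lower, beside 2.36% higher and 0.669% lower among all 10616 genes compared, with values from -0.07 (Fcgr1) to 0.20 (Csf1r) and a median of 0.05. Lyz2 was at 620 FPKM with IL-33, against 592 FPKM in the control (0.06). C1qa was at 16.9 FPKM with IL-33, against 16.1 FPKM in the control (0.07), and C1qc at 31.5 FPKM with IL-33, against 30.6 FPKM in the control (0.04). When each library was scaled to the same total FPKM, Lyz2, C1qa and C1qc came out slightly below the control. Cd68 was at 71.6 FPKM, against 72.6 FPKM in the control (-0.02).

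IL-4 moved none of the 9 genes past the rule at either time, in comparisons in which fewer of all genes passed it than with IL-33. At 1 h, 0 of the 8 compared were higher and 0 lower, beside 0.47% higher and 0.358% lower among all 10628 genes. Csf1r was at 90.1 FPKM with IL-4 at 1 h, against 91.2 FPKM in the control (-0.02), and Emr1 at 400 FPKM with IL-4, against 384 FPKM in the control (0.06). The value farthest from 0 was that of C1qb, at 22.9 FPKM with IL-4, against 25.6 FPKM in the control (-0.16). At 4 h, 0 of the 8 were again higher and 0 lower, beside 0.646% higher and 0.351% lower among all 10833 genes.

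With IL-4 at 4 h, Csf1r was at 103 FPKM, against 97.8 FPKM in the control (0.08), and Emr1 at 279 FPKM with IL-4, against 291 FPKM in the control (-0.06). Neither stood apart as it did with IL-33. Lyz2 was at 644 FPKM with IL-4, against 765 FPKM in the control (-0.25), below the middle 95% of genes with at least 10 FPKM (-0.21 to 0.28). The control of 4 h held the highest Lyz2 level of the 6 libraries, and against the control of 1 h the direction turned (0.04). Fcgr1 was at 5.35 FPKM with IL-4, against 7.40 FPKM in the control (-0.40), the 154th lowest of the genes compared. These were the genes of the set that the authors' deposited table marked significant at 4 h with IL-4, at q-values of 3.56e-05 for Lyz2 and 0.0188 for Fcgr1, again from the reads of 2 libraries. Cd68 was at 100.04 FPKM with IL-4, against 86.8 FPKM in the control (0.20), with a q-value of 0.0733 there and no mark. The C1q sum was 78.2 FPKM with IL-4, against 80.4 FPKM in the control. Lyz2 and Fcgr1 were thus below the control of 4 h with either cytokine, and IL-33 and IL-4 share that control library. Against the control of 1 h, Fcgr1 came to -0.53 with IL-33 and -0.45 with IL-4.

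**Figure D3:**
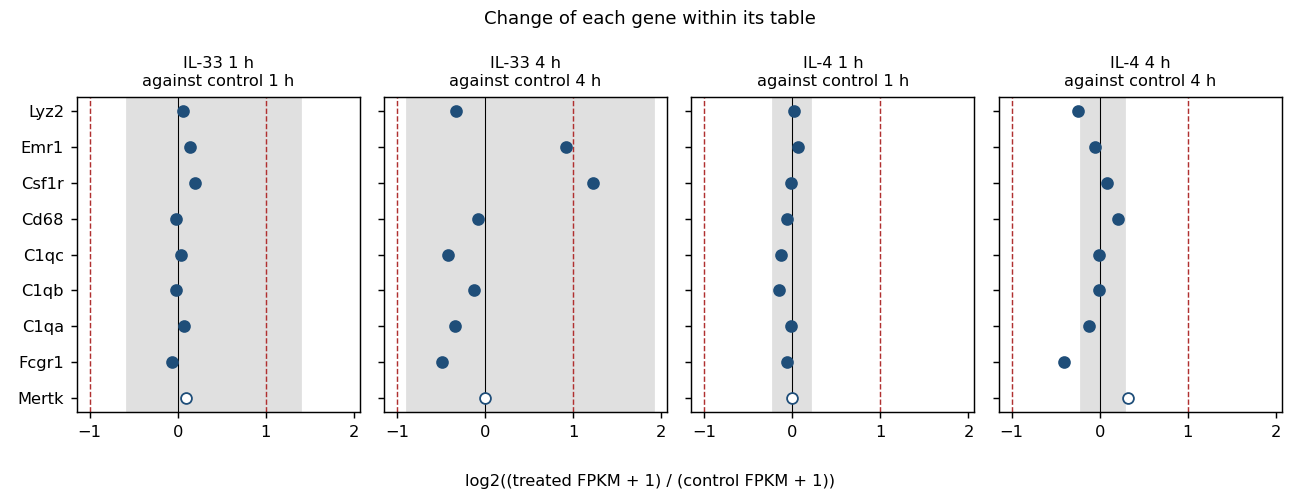
Log2 change of each of the 9 genes in the 4 comparisons of a treated library with its control, 1 point per gene (open for Mertk, under 1 FPKM and not compared). Grey bands hold the middle 95% of genes with at least 10 FPKM and dashed lines mark the size rule of 1. Csf1r with IL-33 at 4 h (1.22) is the point past a dashed line. Lyz2 (-0.25) and Fcgr1 (-0.40) lie left of the narrow band of IL-4 at 4 h. Fcgr1 is under 10 FPKM and so not among the genes behind the band.

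Time in culture medium without cytokine was compared through the controls of the IL-4 tables. Of the 8 genes, 0 were higher and 0 lower at 4 h than at 1 h, beside 0.879% higher and 1.56% lower among all 10813 genes. Lyz2 was at 765 FPKM at 4 h, against 627 FPKM at 1 h (0.29), and C1qa at 19.9 FPKM at 4 h, against 17.0 FPKM at 1 h (0.21). Emr1, given above, had the value farthest from 0 (-0.40). Csf1r was at 97.8 FPKM at 4 h, against 91.2 FPKM at 1 h (0.10), the median change of all genes being 0.10.

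The cytokines were compared by subtracting the IL-4 change from the IL-33 change of the same time, and both changes use the same control library. At 4 h, 1 of the 8 genes was higher (Csf1r, difference 1.14) and 0 were lower, beside 3.66% higher and 1.07% lower among all 10976 genes. Emr1 came to 0.98, and to 1.03 when the median of all genes was subtracted. The other 6 lay between -0.40 (C1qc) and -0.08 (Lyz2). At 1 h, 0 were higher and 0 lower, beside 2.34% higher and 0.661% lower among all 10748 genes, and the largest difference was that of Csf1r (0.22).

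The genes around these 9 were read in 7 lists with 99 genes found: CSF1 receptor ligands and signalling, macrophage transcription factors, clearance of dead cells, Fc receptors and their signalling, complement, lysosome and lysozyme, and other monocyte and macrophage markers. With IL-33 at 4 h, 7 of the 83 genes compared rose and 0 fell, with a median of -0.02. That is 8.43% higher, beside the 4.15% higher and 1.38% lower among all genes. The numbers were 1 of 80 higher with IL-33 at 1 h (1.25%, beside 2.36% of all genes), 0 of 81 with IL-4 at 1 h (beside 0.47%) and 2 of 82 with IL-4 at 4 h (2.44%, beside 0.646%), and 0 fell in each. Over the alternative settings, the number higher ranged from 5 to 8 for IL-33 at 4 h, from 0 to 3 for IL-33 at 1 h, from 0 to 1 for IL-4 at 1 h and from 2 to 4 for IL-4 at 4 h. The number lower reached 3 for IL-4 at 4 h and 1 for each time of IL-33.

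Cd14, the co-receptor for lipopolysaccharide, rose with IL-33 at both times. It was at 178 FPKM with IL-33 at 1 h, against 86.5 FPKM in the control (1.03), while the IL-33 4 h library held 207 FPKM, against 44.6 FPKM in the control (2.19). For IL-4 the values were 99.7 FPKM at 1 h, against 91.6 FPKM in the control, and 46.4 FPKM at 4 h, against 47.0 FPKM in the control. Scaled to the same total FPKM, its change with IL-33 at 1 h was 0.92 and short of the rule. Among the 26 other monocyte and macrophage markers, Cd14 had the largest change with IL-33 at 4 h, in a list whose median was -0.25. The mannose receptor gene Mrc1 was the only other of its 21 compared genes that rose (9.52% of the list rose, beside 4.15% of all genes). Mrc1 was at 10.8 FPKM with IL-33 at 4 h, against 4.85 FPKM in the control (1.02). That call was lost with libraries scaled to the same total (0.89) and against the control of 1 h (0.79). Mrc1 also rose with IL-4 at 4 h, at 15.1 FPKM, against 5.12 FPKM in the control (1.39).

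Most other markers of the same list held lower levels with IL-33 at 4 h without passing the rule. Apoe, the apolipoprotein E gene, was at 223 FPKM, against 302 FPKM in the control (-0.43). Trem2, a lipid-sensing receptor of macrophages, was at 38.9 FPKM, against 54.7 FPKM in the control (-0.48). Ccr2, the chemokine receptor of classical monocytes, was at 6.74 FPKM, against 12.0 FPKM in the control (-0.75). In the IL-4 4 h library Ccr2 was at 9.90 FPKM, against 12.7 FPKM in the control (-0.33). Others of the list were above the control, again short of the rule: Ly6c2, a marker of classical monocytes, was at 1057 FPKM with IL-33 at 4 h, against 860 FPKM in the control (0.30), and Mpeg1, the perforin-2 gene, at 141 FPKM with IL-33, against 105 FPKM in the control (0.42). Of the 21 compared, 8 lay above the control of 4 h and 13 below it, beside 46.5% of all genes above it. The control of 1 h, in the IL-33 tables, held 227 FPKM of Apoe and 38.7 FPKM of Trem2, near their IL-33 4 h levels. It held 1606 FPKM of Ly6c2, above the IL-33 4 h level. For Ccr2 (8.63 FPKM) and Mpeg1 (86.2 FPKM) in that control, the direction stayed as against the control of 4 h. Markers of resident tissue macrophages were uneven in level. Marco was listed at 0 in all libraries, and Vsig4, Cd163, Timd4, Cd5l and Lyve1 were under the 1 FPKM limit in each, whereas Folr2 stood at 4.98 to 9.09 FPKM.

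Among the ligands and signalling partners of the CSF1 receptor, 0 of the 7 compared with IL-33 at 4 h passed the rule (median 0.09). Among all genes compared, 4.15% were higher and 1.38% lower. Csf1, which encodes the ligand, was at 896 FPKM with IL-33 at 1 h, against 495 FPKM in the control (0.85). The IL-33 4 h library held 283 FPKM, against 260.3 FPKM in the control (0.12). For IL-4 the values were 527 FPKM at 1 h, against 524 FPKM in the control, and 277 FPKM at 4 h, against 275 FPKM in the control. The level of Csf1 was thus higher at 1 h than at 4 h in each kind of library. Tyrobp, an adaptor that signals for several myeloid receptors, was at 2852 FPKM with IL-33 at 4 h, against 2777 FPKM in the control (0.04).

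Of the 11 macrophage transcription factors, all compared with IL-33 at 4 h, 2 rose (18.2%) and 0 fell (median 0.31). Among all genes compared, 4.15% were higher and 1.38% lower. Tcfec, a relative of MITF, was at 5.80 FPKM with IL-33, against 1.00 FPKM in the control (1.76), and Spic, which controls red-pulp macrophages of the spleen, at 2.58 FPKM with IL-33, against 0.286 FPKM in the control (1.48). With IL-4 at 4 h, Tcfec was at 5.51 FPKM, against 1.06 FPKM in the control (1.66), whereas Spic was at 0.146 FPKM, against 0.302 FPKM in the control. The control value of Spic with which IL-33 at 4 h was compared lies under 1 FPKM in the shallower library. Sfpi1, encoding PU.1, was the most abundant of the list, at 502 FPKM with IL-33 at 4 h, against 419 FPKM in the control (0.26).

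Of 12 complement genes compared with IL-33 at 4 h, 2 rose (16.7%) and 0 fell (median -0.01), beside 4.15% higher and 1.38% lower among all genes. C3, the central component, was at 27.4 FPKM with IL-33, against 10.5 FPKM in the control (1.31). In the IL-4 4 h library C3 was at 19.8 FPKM, against 11.0 FPKM in the control (0.79). Cfb, factor B of the alternative pathway, was at 4.94 FPKM with IL-33, against 1.36 FPKM in the control (1.33). The C1q genes, described above, are not part of this list and did not pass the rule. C5ar1, the receptor for C5a, passed the rule in the difference between the cytokines at 1 h (1.15), with 30.2 FPKM in the IL-33 library, against 15.4 FPKM in its control, and 13.8 FPKM in the IL-4 library, against 16.3 FPKM in its control.

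Of 15 lysosomal genes, 1 rose with IL-33 at 4 h (6.67%), beside 4.15% higher and 1.38% lower among all genes compared. Ctsz, the protease cathepsin Z, was at 324 FPKM with IL-33, against 131 FPKM in the control (1.30), in a list with a median of -0.22. Among the 7 Fc receptor and signalling genes, 0 passed the rule at 4 h (median 0.37). Fcer1g, the signalling chain that Fcgr1 needs, was at 1301 FPKM with IL-33, against 786 FPKM in the control (0.73), and Lyn, a kinase acting beside it, at 139 FPKM with IL-33, against 71.1 FPKM in the control (0.95). Fcgr1 thus had its lowest level in the library in which its signalling chain had its highest. Among the clearance genes, 0 of 10 passed the rule, and in lists this short 0 or 1 called says little beside the shares of all genes. Axl, of the same receptor family as Mertk, was at 3.40 FPKM with IL-33 at 4 h, against 4.71 FPKM in the control (-0.38), and Gas6, a ligand of that family, at 1.35 FPKM with IL-33, against 1.60 FPKM in the control (-0.15). The control of 1 h, in the IL-33 tables, held 3.39 FPKM of Axl and 1.39 FPKM of Gas6, near their IL-33 4 h levels.

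**Figure D4:**
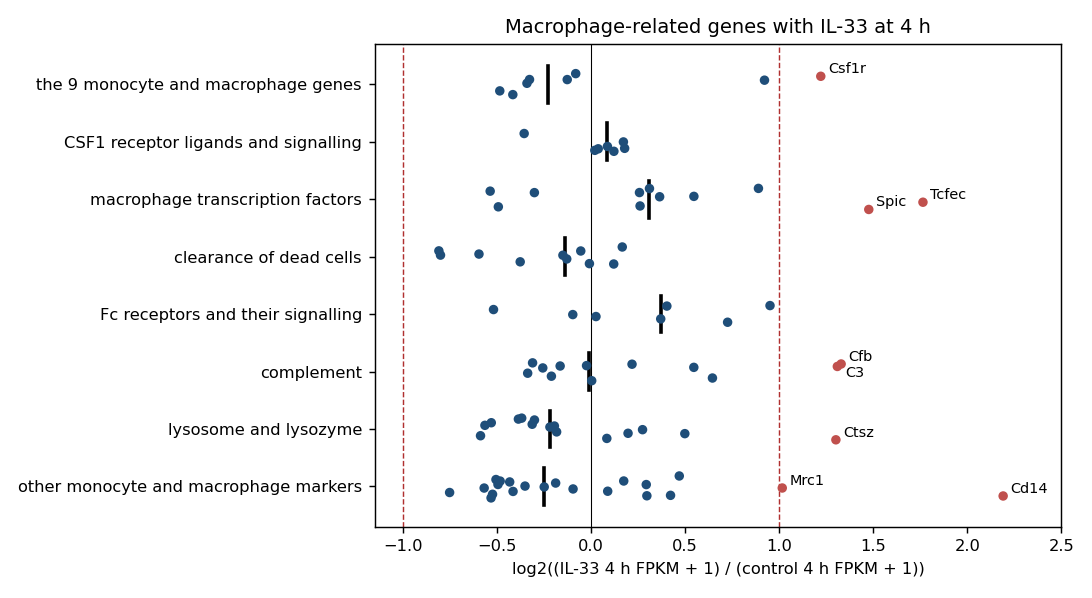
Log2 change with IL-33 at 4 h of each compared gene of the 9 and of the 7 related lists, 1 point per gene, with list medians as black bars and the size rule of 1 as dashed lines. Csf1r and 7 other named genes lie right of the rule and none lies left of it; the median of the 8 compared of the 9 genes is -0.23.

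Cell type markers were summed per library to read the 9 genes beside other cells. The 26 other monocyte and macrophage markers summed to 4220 FPKM in the IL-33 4 h library, against 3911 FPKM in its control, though their share of all FPKM was 0.557% there, against 0.570% in the control. They summed to 4146 FPKM with IL-4 at 4 h, against 4129 FPKM in its control. Their range was 3911 to 5531 FPKM over all columns, with the libraries of 1 h highest. That order of sums follows the abundant Ly6c genes and not the list as a whole. In the controls of the IL-4 tables, Ly6c2 was at 1700 FPKM at 1 h, against 908 FPKM at 4 h. Ly6c1 was at 1238 FPKM at 1 h, against 667 FPKM at 4 h. Of the 20 markers compared between these controls, 11 lay above the 1 h level at 4 h and 9 below it, beside 64.6% of all genes above. Eosinophil markers summed to 62226 FPKM with IL-33 at 4 h, against 66363 FPKM in the control, and 0 of 12 passed the rule in any comparison. Neutrophil markers summed to 6385 FPKM with IL-33 at 4 h, against 8232 FPKM in the control. Of these markers, 14 were found, all at 1 FPKM or more, and 0 passed the rule. Over the 7 comparisons, the share of all genes called in 1 direction was 0.351% to 4.15%. Thus 0 called in lists this short says little about either cell type. With IL-4 at 4 h, where Lyz2 was also below the control, neutrophil markers summed to 8654 FPKM, against 8690 FPKM in the control. The part of neutrophil transcripts in the Lyz2 values was not tested.

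Markers of dendritic cells, a related myeloid cell type, summed to 238 FPKM with IL-33 at 4 h, against 232 FPKM in the control. Cd74 was the most abundant of them, at 112 FPKM with IL-33, against 122 FPKM in the control. Zbtb46, Xcr1, Clec9a and Cd209a of the same list were under 1 FPKM in every library. The transcription factor gene Batf3 rose, at 36.4 FPKM with IL-33, against 7.66 FPKM in the control (2.11). Batf3 also rose in the IL-4 4 h library, at 18.6 FPKM, against 8.09 FPKM in the control (1.11). The integrin gene Itgae fell to 0.987 FPKM with IL-33, against 3.96 FPKM in the control (-1.32). Against the control of 1 h, Itgae came to 0.28 with IL-33 at 4 h and Batf3 to 0.87 with IL-4 at 4 h, so neither call held there. In the controls, Itgae and Itgax, the CD11c gene, were higher at 4 h than at 1 h, Itgax at 34.9 FPKM at 4 h, against 14.0 FPKM at 1 h (1.26). Osteoclast markers summed to 71.1 FPKM with IL-33 at 4 h, against 106 FPKM in the control. Mmp9 was the most abundant of them, at 36.5 FPKM with IL-33, against 55.6 FPKM in the control. Only 4 of the 9 reached 1 FPKM in either library. Calcr, the calcitonin receptor gene of that cell, was listed at 0 in all libraries. The part of osteoclasts in the level of Csf1r was not tested.

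Mast cell and basophil markers summed to 417 to 494 FPKM, erythroid and megakaryocyte markers to 277 to 315 FPKM and lymphoid markers to 33.1 to 39.3 FPKM over all columns. Among the lymphoid markers, Klrb1c, an NK receptor gene, rose with IL-33 at 4 h, at 7.07 FPKM, against 1.85 FPKM in the control. Hbb-b2, a globin gene, fell in the controls, at 0.0790 FPKM at 4 h, against 1.52 FPKM at 1 h. Stromal markers were the lowest list, at 3.82 to 14.9 FPKM, and 3 of the 6 compared with IL-4 at 1 h rose, beside 0.47% of all genes: Col1a1 was at 2.93 FPKM with IL-4, against 0.443 FPKM in the control (1.45), and Sparc at 4.08 FPKM with IL-4, against 1.31 FPKM in the control (1.14), with Col1a2 the third. With IL-33 at 1 h, Col1a1 was at 1.58 FPKM, against 0.419 FPKM in the control (0.87). All 6 stromal genes compared lay above that control, beside 47.6% of all genes. Of the 6, 0 passed the rule, beside 2.36% higher and 0.669% lower among all genes.

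**Figure D5:**
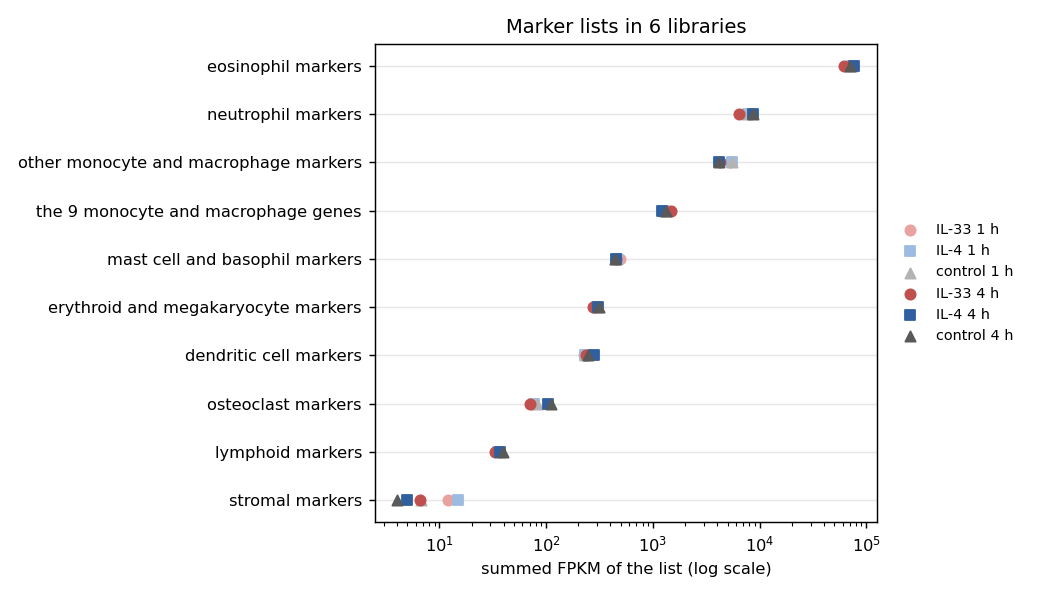
Summed FPKM (log scale) of 10 marker lists in the 6 libraries, 1 point per library, controls from the IL-4 tables. The 9 monocyte and macrophage genes (1211 to 1462 FPKM) lie below the eosinophil, neutrophil and other monocyte and macrophage lists and above the mast cell, erythroid, dendritic, osteoclast, lymphoid and stromal ones. The lists hold 9 to 26 genes, and 1 abundant gene can make up much of a sum. Lyz2 was 765 of the 1329 FPKM of the 9 genes in the control of 4 h. The order of the sums is therefore no measure of cell content.

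Profiles of change were compared by the Euclidean distance over 5 log2 changes (the 4 treated libraries against their controls, and control 4 h against control 1 h) in the 6 libraries, comparisons that share control libraries. Among the members, C1qa lay 0.153 from Lyz2 and 0.190 from C1qc, while Csf1r lay 0.604 from Emr1 and 1.33 from Cd68. Among 6454 other genes with at least 10 FPKM, those nearest to Csf1r were Tbl1x (0.167), Fgr (0.175), Rab10 (0.180) and Rap1gds1 (0.181). Fgr, a Src family kinase of myeloid cells, changed by 1.23 with IL-33 at 4 h and by 0.02 with IL-4 at 4 h. Those nearest to the mean of the C1q genes were Rpl13 (0.0417), a ribosomal protein gene, Man2b1 (0.0699), Sbf1 (0.0722) and Mars (0.0748). Rpl13 changed by -0.30 with IL-33 at 4 h and by -0.05 with IL-4 at 4 h, beside -0.29 and -0.05 for the C1q mean.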

How the data were processed

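RNA-seq of 6 libraries, 1 for each of 6 groups, was analysed. The submitters' processing notes name TopHat 1.4.1, Cuffdiff 1.2.1 and build mm9. The RefSeq release and trimming are not given in the sources used here. Per transcript, the authors deposited FPKM of 28702 entries in 4 tables of 1 treated and 1 control library, with p-value and q-value columns that compare the reads of a library pair and were copied for the members only. A further deposited list holds the authors' log2 fold changes and was used only to check which table belongs to which time. Depth in reads is unknown; it was estimated relative to the control from the steps of low FPKM values.

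FPKM of the transcripts of a symbol were summed. Of 22548 genes, 3869 had several transcripts and 232 several loci, of which the locus of highest total was kept. The pseudocount was 1, the minimum 1 FPKM in 1 library, and the size rule a log2 change of 1. The design had foreseen values per gene, and the files hold values per transcript. Groups follow the labels. The members, the 15 gene lists beside them and the comparisons were chosen with earlier results of these data known. The genes named were the 9 members, Prg2, the 4 genes nearest to Csf1r and to the C1q mean, and up to 4 genes per list and comparison past the rule. Other list genes, such as Apoe, Trem2, Ccr2, Csf1, Tyrobp, Sfpi1, Fcer1g, Lyn, Axl, Gas6, Ly6c2, Mpeg1, Folr2 and those listed at or near 0, were named after their values were seen, for their known roles. The same holds for Ccr3, Siglec5 and Il5ra. Mmp9, Cd74 and Ly6c1 were also named after their values were seen, for their part in the sum of their list. A gene that the rule would name is not reported here. Of the listed genes, 2 (Syk and Ly6g) were not matched to a symbol. Alternatives were another pseudocount, other filters, the control of the other time, 1 transcript per gene, and other scalings. Steps were tested on simulated data. Python 3.11.15, pandas 2.3.3, numpy 2.4.6 and matplotlib 3.10.9 were used.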

Additional observations from a re-analysis of the deposited data

How the results depend on the processing

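Of 378 changes of the 9 genes recomputed under an alternative, 377 stayed on the same side of the size rule and 0 called values reversed. Many of these could not move. Each of the 9 genes has 1 transcript, so the setting of 1 transcript per gene returns the same values. The filters on low values do not alter a log2 change. A shift between not compared and compared but short of the rule counted as the same side. The ranges that follow include such settings. Csf1r with IL-33 at 4 h ranged from 1.08 to 1.32 over 7 alternatives, and its difference between IL-33 and IL-4 at 4 h from 1.14 to 1.19 over 4. Emr1 with IL-33 at 4 h ranged from 0.53 to 0.95, and 2 members instead of 1 passed the rule in the difference of the cytokines at 4 h once the median of all genes was subtracted.

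The counts over all genes moved more. With a pseudocount of 0.1, genes lower numbered 127 for IL-33 at 1 h, 324 for IL-33 at 4 h and 65 for IL-4 at 4 h, where 118 were higher. The same setting gave 233 higher in the controls, and, in the difference of the cytokines, 114 lower at 1 h and 296 at 4 h. Against the control of the other time, IL-33 at 1 h had 433 higher and 345 lower, IL-4 at 1 h 178 and 117, and IL-4 at 4 h 128 and 152. With the transcript of highest total, 75 were lower for each time of IL-4 and 160 higher in the controls. Scaled to the same total FPKM, 238 were lower with IL-33 at 4 h. The cause of these moves was not tested.

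No paired analysis was possible because each group had 1 library, and for the same reason no replicate was left out. Differences here have no measure of the variation between cultures. Depth limits the low values: genes under 1 FPKM in both libraries of a pair were not compared, and those under it in 1 library were.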
